A study of Mus musculus with 8 samples.

Results

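Lymphatic endothelial nuclei of the mouse heart were examined in WT and Taz-KO mice by single-nucleus RNA-seq of the whole organ. Tafazzin, the product of Taz, is an acyltransferase that remodels cardiolipin, the signature phospholipid of the inner mitochondrial membrane, and its loss causes Barth Syndrome. A barcode, the tag that marks the RNA of 1 droplet, was a member if it held at least 800 non-mitochondrial unique molecular identifiers (UMIs), at least 4 of them from Mmrn1, Reln, Prox1, Pkhd1l1, Flt4 and Ccl21a, and if the share of its UMIs from these 6 genes was at least 10 times their share in the whole library. Its share of Ryr2 and Ttn UMIs could not exceed 1 time that of the library, its share of Gpc6, Bicc1 and Pdgfra 1.5 times, and its share of F13a1, Mrc1 and Cd163 3 times. These limits removed barcodes whose cardiomyocyte, fibroblast or macrophage transcripts exceeded the given multiples of the library's share. Of 167504 barcodes with at least 800 such UMIs, 1750 (1.04%) were members.

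Lymphatic vessels take up fluid, proteins and immune cells from the tissue and return them to the blood, and in the heart they run mainly beneath the epicardium. Their endothelium is set apart from that of blood vessels by the transcription factor PROX1, which is needed to establish and keep lymphatic identity. Its growth is driven by VEGF-C acting on VEGFR-3, the receptor encoded by Flt4, and its chemokine CCL21 draws dendritic cells and T cells that carry CCR7 into the vessels.

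The hearts came from 4 WT and 4 Taz-KO male mice that were 9 weeks old, with 1 library per mouse. The Taz-KO mice carried a knockout of Tafazzin that the sources do not describe as restricted to any cell type. The strain and the design of the allele are not given in the sources used here. Mice are named by the numbers in their labels, WT 4686, 4909, 5355 and 5356 and Taz-KO 4685, 4910, 5300 and 5301, and values per mouse follow this order, without Taz-KO 4685 where 7 mice are given.

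The libraries held from 20025456 to 348080773 UMIs, and all of them came from the same kind of flow cell, and the labels name no batch. Of the 28 pairs of libraries, each shared 2 to 294 barcode sequences, at most 1.04% of the smaller library. Taz-KO 4685 had 8 members and was left out of the main test of genes, which used 1742 members of 4 WT and 3 Taz-KO mice. It entered only the alternative fits with all 8 mice and with an enrichment of at least 5. In this mouse the median UMI count of a member was 2.76 times, and in Taz-KO 5301 2.14 times, that of its library, whereas it was 0.93 to 1.13 times in the other mice. Mitochondrial genes were left out of the UMI counts of barcodes and of all levels, but not of the library totals above or of the number of genes per member. Levels are given as CPM, the UMIs of a gene per 1000000 non-mitochondrial UMIs, both summed over the nuclei of 1 mouse. Since these are sums over nuclei, a higher level cannot be told apart from a higher share of nuclei that express the gene.

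The numbers of members were 348, 272, 253 and 190 in the WT mice and 8, 380, 237 and 62 in the Taz-KO mice. A member held a median of 3154 to 6600.5 UMIs and 1673.5 to 3138 genes in the 7 mice with more than 8 members. The exclusion limits removed 331 of 2081 barcodes that passed the marker criterion, 270 of them for fibroblast, 42 for macrophage and 21 for cardiomyocyte transcripts, some for more than 1 of these. In the same 7 mice the median enrichment of a member was 13.1 to 18.6 and the median number of marker UMIs 13 to 27, whereas the 8 members of Taz-KO 4685 had medians of 10.9 and 38. Near the limit, 235 members had an enrichment of 10 to 11, and 274 barcodes that passed every other criterion had one of 9 to 10 and were not members.

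The 6 marker genes, whose values chose the members, were unevenly spread over the nuclei. Of the 1750 members, 1001 (57.2%) held UMIs of 5 or 6 of the genes, and 199 (11.4%) held UMIs of only 1. Reln at chr5:21884454-22344702 of GRCm38 encodes the secreted glycoprotein reelin and gave a median of 24.5% of the marker UMIs of a mouse. Mmrn1 at chr6:60924976-60989378, which encodes the secreted protein multimerin, gave 15.2%. Prox1 at chr1:190118035-190170714 gave 12.6%, Flt4 at chr11:49609263-49652739 gave 9.62%, and Ccl21a at chr4:42772860-42773993 gave 6.50%. Ccl21a belongs to a family of near-identical copies, and its counts are therefore uncertain. Pkhd1l1 at chr15:44457494-44601369 encodes fibrocystin-L, a large membrane protein, and gave a median of 28.9% and the widest range of the 6 genes, from 15.3% to 50.7% in Taz-KO 5301. These shares are over the 7 mice with more than 8 members, and in Taz-KO 4685 Pkhd1l1 gave 2.32%. In Taz-KO 5301, Pkhd1l1 was the only marker found in 50% of the members, against 2.59 to 16.3% in the other 6 mice with more than 8 members.

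The label was therefore checked by applying the rule again without Pkhd1l1, an alternative added after seeing the data. In total 1309 members still passed, with an enrichment of at least 10 and at least 4 UMIs over the other 5 genes, and are called core members here. The remaining 441 members passed only through Pkhd1l1. They were 46, 62, 59 and 46 nuclei in the WT mice, or 13.2, 22.8, 23.3 and 24.2% of their members. In the Taz-KO mice they were 0, 128, 64 and 36 nuclei, or 0, 33.7, 27.0 and 58.1%. The share was thus highest in Taz-KO 5301, where 26 core members remained. The smallest number of nuclei lay between the extremes, since Pkhd1l1 gave less than 20% of the marker UMIs in 1134 members, over 80% in 373 and an intermediate share in 243.

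**Figure D1:**
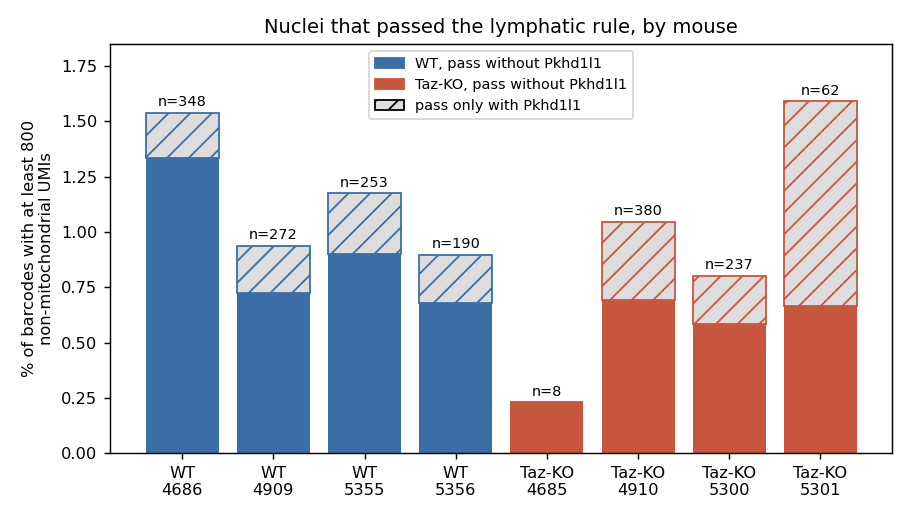
Members as a percent of the barcodes with at least 800 non-mitochondrial UMIs in each of the 8 mice (bars, with the number of members above), split into core members (solid, WT blue and Taz-KO red) and members that passed only with Pkhd1l1 (hatched). The hatched part is absent in Taz-KO 4685 and exceeds the solid part only in Taz-KO 5301 (0.923% against 0.667%).

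Markers that the rule did not use separated these nuclei. The 8 other lymphatic markers, Lyve1, Pdpn, Nrp2, Sema3d, Tbx1, Gpr182, Stab1 and Stab2, summed to 2219, 2005, 2343 and 2632 CPM in core members of WT mice and 2264, 2301 and 3151 CPM in those of Taz-KO mice, taking the 7 mice with more than 8 members. In blood endothelial nuclei of the same mice, 8176 nuclei over all 8 mice chosen by Flt1, Kdr, Rgcc, Btnl9, Gpihbp1 and Aqp1, the sum was 580.1 to 954 CPM. The ranges did not overlap. The core members thus carried the lymphatic label on the sum of these genes outside the rule as well. Not each gene did so singly. Over all members, the log2 ratio of Gpr182 to blood endothelial nuclei had a median of -0.06 (-3.37 to 0.19) and was above 0 in 3 of 7 mice.

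The members that passed only through Pkhd1l1 had lower levels of most of these genes, with a sum of 1163 to 1564 CPM. Their level of Lyve1, the hyaluronan receptor used to mark lymphatic vessels, was 3.62 to 83.9 CPM, against 178 to 278 CPM in core members. Nrp2 had a median of 156 CPM in them against 877 CPM, Stab1 of 89.2 against 417 CPM, and Tbx1 of 3.07 against 69.96 CPM. Pdpn, which both lymphatic endothelium and mesothelium express, did not separate them, with 119.7 against 101 CPM. Sema3d was higher in them, at 961 against 527 CPM.

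The 4 mesothelial markers Msln, Upk3b, Muc16 and Wt1 summed to 1749, 2241, 4366 and 3697 CPM in WT mice and 2268, 2386 and 3980.3 CPM in Taz-KO mice, taking the members that passed only through Pkhd1l1. In core members the sum was 28.3, 58.4, 108 and 18.2 CPM in WT mice and 112, 130.3 and 25.01 CPM in Taz-KO mice. Over all barcodes it was 55.8 to 173 CPM. Core members lay above all barcodes of the same mouse in WT 5355 (108.3 against 107.3 CPM) and Taz-KO 4910 (112.5 against 99.9 CPM), and below them in the other mice. Muc16, a membrane mucin of the mesothelial surface, was at 1276 to 3037 CPM in the former and at 2.80 to 60.5 CPM in core members. Wt1, a transcription factor of the epicardium, was at 291 to 677 and 0 to 14.9 CPM. As sums per mouse, the data thus go against the lymphatic label for these 441 nuclei as a set, called Pkhd1l1-dependent members below. Whether the label holds for some of these nuclei singly was not tested. Their sum of the lymphatic markers outside the rule, 1163 to 1564 CPM, was above the 580.1 to 954 CPM of blood endothelial nuclei. The largest part of this sum came from Sema3d, which was higher in these nuclei than in core members. It also held Pdpn, which mesothelium expresses too, so that the sum alone does not show a lymphatic label. Endocardial markers went both ways in Pkhd1l1-dependent members against core members. Npr3 was higher, at a median of 571 CPM against 91.8 CPM, and Nfatc1 was lower, at 6.96 to 55.9 CPM against 111 to 210 CPM. The general endothelial markers Pecam1, Cdh5, Tie1, Tek, Emcn and Ptprb summed to 285 to 1872 CPM in them and to 1655 to 2226 CPM in core members.

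**Figure D2:**
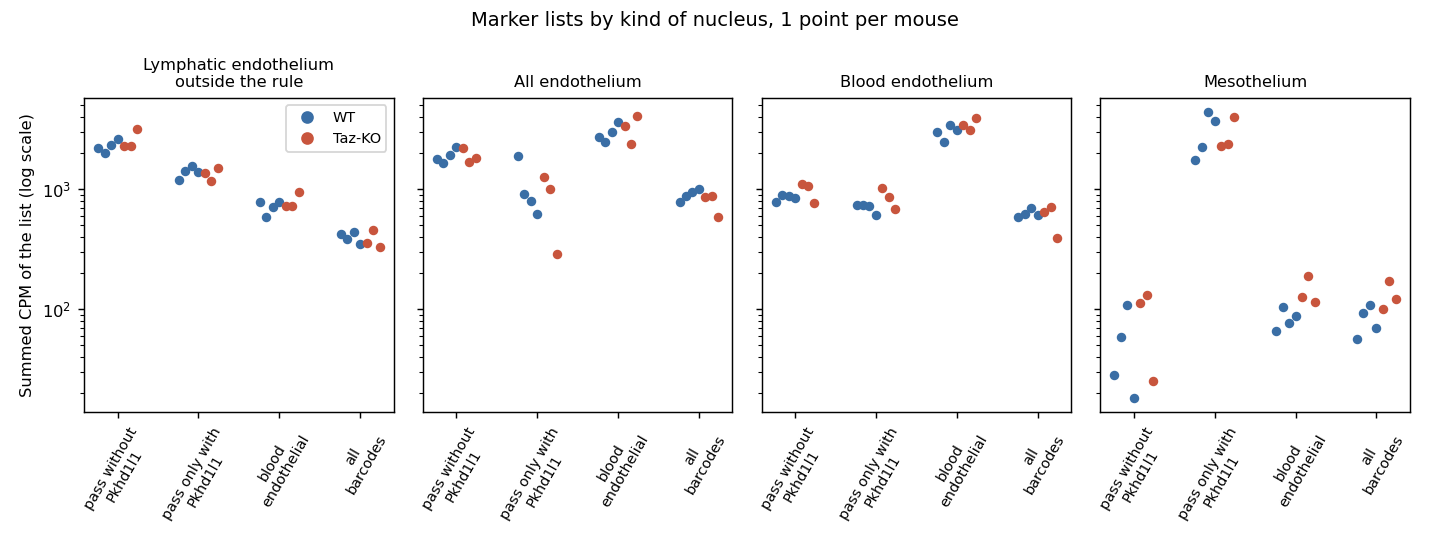
Summed CPM (log axis) of 4 marker lists in core members, Pkhd1l1-dependent members, blood endothelial nuclei and all barcodes, with 1 point per mouse for the 7 mice with more than 8 members. The mesothelial list reaches 1749 to 4366 CPM only in Pkhd1l1-dependent members, and the lymphatic markers outside the rule are highest in core members.

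Transcripts of other cell types were present in the members, as they were in blood endothelial nuclei. The cardiomyocyte list of Ryr2, Ttn, Myh6, Tnnt2, Actc1 and Pln summed to 10104, 13639.8, 11532 and 6499 CPM in all members of WT mice and 11110.1, 11540.1 and 2419 CPM in those of Taz-KO mice, and to 25376 to 32506 CPM in all barcodes. It was lowest in WT 5356 and Taz-KO 5301, where the fibroblast list was also lowest, at 1797 and 1837 CPM against 2799 to 4382 CPM in the other mice. The lists of T lymphocytes and adipocytes stayed at or below 26.5 CPM, and those of B lymphocytes, Schwann cells and smooth muscle summed to 30.7 to 90.96, 13.3 to 31.5 and 13.1 to 133 CPM. The macrophage and pericyte lists summed to 326 to 787 and 179 to 641 CPM. The endocardial list of Npr3, Vwf, Plvap, Nfatc1 and Cytl1 summed to 449, 461, 438 and 402 CPM in members of WT mice and 574, 566 and 532 CPM in those of Taz-KO mice, higher in Taz-KO without overlap, and in core members to 338 to 396 CPM in WT and 338 to 487 CPM in Taz-KO, with overlap. The 6 blood endothelial genes summed to 768, 844, 821 and 781 CPM in members of WT mice and 1075, 992 and 711 CPM in those of Taz-KO mice, above all WT mice in 2 of the 3 Taz-KO mice and below them in Taz-KO 5301. The part of these transcripts in the levels of the members, and in the differences between genotypes given below, was not tested.

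The core members were then compared with blood endothelial nuclei of the same mouse. Since both kinds of nuclei were chosen by their transcripts, the differences are given as a description, without a test, as the median over 7 mice of the log2 ratio of CPM with 1 CPM added, followed by the lowest and highest mouse. The share of nuclei with at least 1 UMI of a gene was taken after every nucleus had been thinned to 800 UMIs, since the median depth was 2281 to 6331.5 UMIs in core members and 2063 to 5318 UMIs in blood endothelial nuclei. In Taz-KO 5301, with 26 core members, a single UMI corresponded to 12.5 CPM. Levels are not corrected for transcript length and are not compared between genes.

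Of the lymphatic transcription factors, Tbx1, which acts in the growth of lymphatic vessels, was at 80.6, 69.96, 81.8 and 65.9 CPM in core members of WT mice and 53.9, 59.1 and 113 CPM in those of Taz-KO mice. In blood endothelial nuclei it was at 0.290 to 1.93 CPM, and the log2 ratio was 5.24 (4.60 to 5.70). After thinning, 6.67% of core members and 0.0458% of blood endothelial nuclei held a UMI of it. Nr2f2, which encodes COUP-TFII, a vein and lymphatic factor that acts with PROX1, was at a median of 404 against 106 CPM, with a log2 ratio of 2.07 (1.73 to 2.81). Nfatc1 and Tshz2 had smaller ratios, of 0.96 (0.34 to 1.26) and 0.58 (0.05 to 0.69). Foxc2, a factor of lymphatic valves, was at 4.25 to 22.6 CPM in core members. Over all members its log2 ratio to blood endothelial nuclei was 1.11 (-0.13 to 2.92), above 0 in 6 of 7 mice. The flow-responsive factors Klf2 and Klf4 and the endothelial factor Meox2 were lower in core members than in blood endothelial nuclei in 7 of 7 mice, with log2 ratios of -0.56 (-1.13 to -0.09), -0.51 (-2.27 to -0.26) and -1.77 (-7.39 to -1.60).

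Of the VEGF-C axis, Nrp2 was higher and Vegfc lower in core members than in blood endothelial nuclei in 7 of 7 mice. Flt4, a gene of the rule whose difference the choice of nuclei fixed, was at 477 to 913 CPM in core members and at 9.48 to 27.2 CPM in blood endothelial nuclei. Nrp2, the co-receptor that binds VEGF-C, was at 836, 799, 884 and 1306 CPM in core members of WT mice and 819, 877 and 1413 CPM in those of Taz-KO mice and at 312 to 751 CPM in blood endothelial nuclei, with a log2 ratio of 1.10 (0.74 to 1.35). Itga9, an integrin subunit needed for lymphatic valves, had a ratio of 2.07 (1.88 to 2.41). Nrp1, a co-receptor of blood endothelium, had one of -2.08 (-3.81 to -1.40). Vegfc itself was at 29.3, 48.2, 57.4 and 44.8 CPM in core members of WT mice and 63.3, 36.5 and 0 CPM in those of Taz-KO mice. It was at 167 to 397 CPM in blood endothelial nuclei, and 3.47% and 15.3% of the nuclei held a UMI of it after thinning.

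Among receptors of other growth signals, Calcrl, the adrenomedullin receptor, had a log2 ratio of 0.35 (0.16 to 0.54), and its partner Ramp2 one of 0.07 (-0.14 to 0.67). Angpt2, a ligand of the TIE2 receptor that lymphatic development needs, was at 57.3 to 163 CPM in core members against 15.7 to 40.5 CPM, a ratio of 1.97 (1.41 to 2.14). Tek, which encodes TIE2, and Tie1 were lower in core members in 7 of 7 mice, with -0.52 (-1.53 to -0.42) and -0.49 (-1.40 to -0.23), as was Ptprb, the phosphatase that acts on TIE2, with -0.94 (-1.55 to -0.71).

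Junction genes lay on both sides. Cdh5 and Pecam1, which encode the adhesion proteins of endothelial contacts, had ratios of -0.63 (-1.43 to -0.56) and -0.36 (-0.52 to -0.15). Jam2 had one of -2.26 (-5.08 to -1.56), while Cldn5 and Efnb2, a valve gene that encodes ephrin-B2, were higher in core members in 7 of 7 mice, with 0.84 (0.40 to 1.75) and 0.45 (0.29 to 1.12). Celsr1, a planar polarity gene of valve cells, was at 27.8 to 62.5 CPM against 0 to 7.11 CPM.

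Genes of immune traffic and scavenging gave large differences. Il7, the cytokine that keeps T lymphocytes alive, was at 116, 158, 149 and 186 CPM in core members of WT mice and 116, 78.2 and 163 CPM in those of Taz-KO mice and at 2.31 to 8.03 CPM in blood endothelial nuclei. After thinning, 8.61% and 0.201% of these nuclei held a UMI of it. Stab2, a scavenger receptor for hyaluronan, was at 47.6 to 150.1 CPM against 0.963 to 2.77 CPM, with a ratio of 4.13 (3.79 to 5.88). Stab1 had a ratio of 1.49 (1.12 to 1.94), and Lyve1 one of 1.87 (1.80 to 3.69). Spns2, the exporter of sphingosine 1-phosphate, was at 71.3 to 150.1 CPM in core members and 33.5 to 88.8 CPM in blood endothelial nuclei, and the receptor S1pr1 had a ratio of -0.69 (-0.82 to -0.11). Ackr2, a receptor that removes inflammatory chemokines, had a median of 56.5 CPM against 5.97 CPM but was at 0 in the 26 core members of Taz-KO 5301. The chemokine Cxcl12 was on the blood side, with -1.93 (-7.58 to -1.81).

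Of the semaphorins, which guide axons and vessels, Sema3a, Sema3d and Sema6a were on the lymphatic side and Sema7a on the blood side, with a median log2 ratio of -2.30 (-6.65 to -1.87). Sema3a, which acts in lymphatic valve formation, was at 423, 392, 391 and 517 CPM in core members of WT mice and 411, 485 and 725 CPM in those of Taz-KO mice. It was at 18.7 to 23.2 CPM in blood endothelial nuclei, and the ratio was 4.31 (4.09 to 5.09). Sema3d had a ratio of 3.84 (3.25 to 4.41) and Sema6a one of 0.94 (0.66 to 1.19).

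Of the secreted and matrix genes, Cp, which encodes the copper-carrying ferroxidase ceruloplasmin, was at 1135, 738, 1081 and 1069 CPM in core members of WT mice and 1268, 686 and 1225 CPM in those of Taz-KO mice and at 109 to 248 CPM in blood endothelial nuclei. After thinning, 55.3% and 15.1% of the nuclei held a UMI of it. Lama4, a laminin chain of the endothelial basement membrane, had a ratio of 1.30 (1.11 to 1.66), and Tgfb2 one of 1.46 (0.97 to 4.42), its highest value from the 26 core members of Taz-KO 5301. Col4a1, the collagen of basement membranes, was lower in core members in 7 of 7 mice, with -0.64 (-1.61 to -0.05). The fatty acid carriers Cd36 and Fabp4, which capillary endothelium of the heart uses to pass fatty acids to cardiomyocytes, were lower in core members in 7 of 7 mice, with -1.49 (-2.65 to -1.04) and -1.63 (-3.50 to -1.06).

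**Figure D3:**
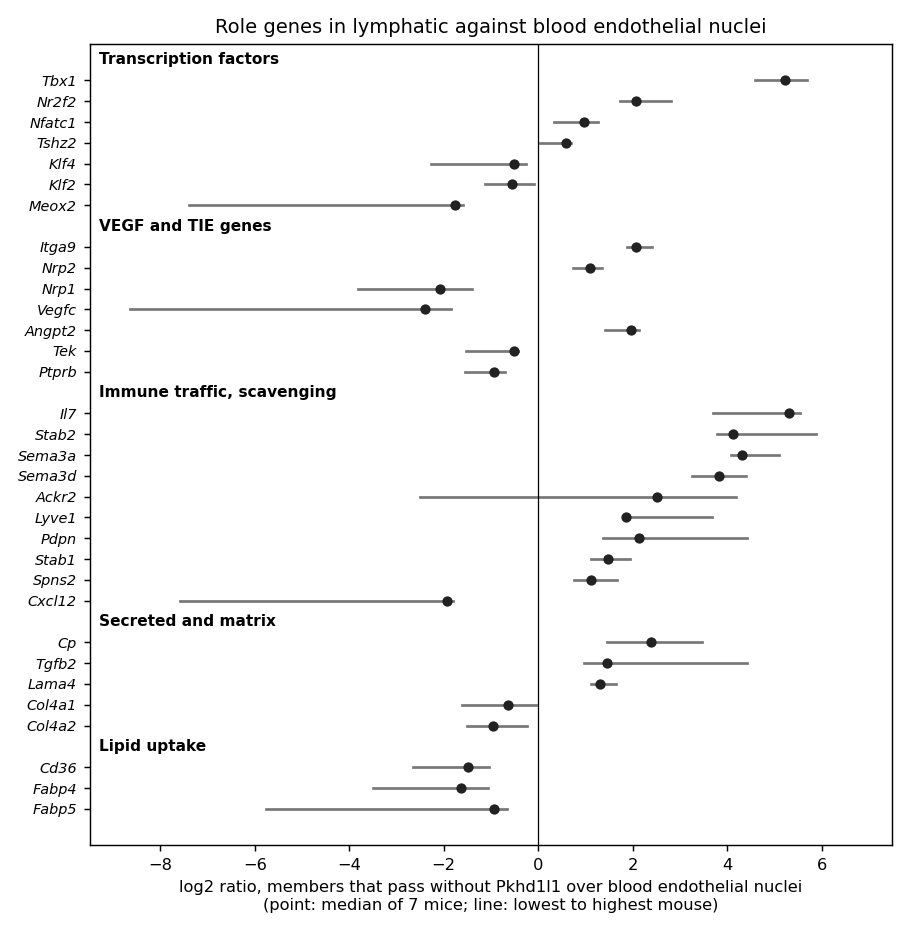
Log2 ratio of CPM plus 1 in core members over blood endothelial nuclei of the same mouse for genes ordered by role (point, median of 7 mice, and line, lowest to highest mouse). Tbx1, Il7, Sema3a and Stab2 lie above 3.5 in all 7 mice, and Vegfc, Nrp1, Cd36 and Fabp4 lie below 0 in all 7.

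Outside the lists, genes were ranked over all members by the log2 ratio in the mouse where it was smallest, leaving out the genes of either choice of nuclei. The 15 leading genes on the lymphatic side were Sh3gl3, Tc2n, Pld5, Apba2, Tll1, Tbx1, Susd4, Nrcam, Clca3a1, Prkcz, Sema3a, A830019P07Rik, Muc16, Kcnn3 and Tnfaip8l3. Tc2n, a gene of a protein with C2 domains, was at a median of 298 CPM in core members and 2.31 CPM in blood endothelial nuclei. Pld5 was at 256 and 2.66 CPM, Apba2, a neuronal adaptor gene, at 305 and 3.92 CPM, and Nrcam, a neuronal adhesion gene, at 105 and 1.74 CPM. Tll1, a metalloprotease gene, was at 621 CPM in core members and also at 494 CPM in Pkhd1l1-dependent members. Muc16 owed its place to the latter, since its log2 ratio had a median of 4.87 over all members and of 0.13 over core members. A ranking over core members shared 12 of the 15 genes and added Pard6g, Adgrg3 and Duox2.

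On the blood side the 15 leading genes were Gm29007, Dach1, Efr3b, Zfp366, Mcf2l, Slc26a10, Ccdc85a, Slc28a2, Trpm3, Dcbld1, Myo10, Ntf3, A730049H05Rik, Vegfc and Eepd1. Dach1, a transcription factor gene of coronary artery growth, was at a median of 1155 CPM in blood endothelial nuclei and 139 CPM in core members. Myo10, which encodes an unconventional myosin, was at 465 against 69.5 CPM, and Ntf3, the neurotrophin-3 gene, at 126 against 18.8 CPM.

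Whether the share of members, Pkhd1l1-dependent ones included, differed between genotypes was tested over the mice. The barcodes with at least 800 non-mitochondrial UMIs numbered 22593, 29016, 21541 and 21190 in the WT mice and 3475, 36308, 29482 and 3899 in the Taz-KO mice. The study kept fewer nuclei in total after its own filtering, so that the shares are of barcodes and not of its nuclei. Members made up 1.54, 0.937, 1.17 and 0.897% of the barcodes in the WT mice and 0.230, 1.05, 0.804 and 1.59% in the Taz-KO mice. The Taz-KO values spanned the whole WT range, with Taz-KO 4685 and 5300 below all WT mice and Taz-KO 5301 above them. The mean was 1.14% ± 0.295 (SD, n = 4) for WT mice and 0.918% ± 0.564 (SD, n = 4) for Taz-KO mice. The difference of -0.220 percentage points gave p = 0.514 in an exact two-sided permutation test, where 4 against 4 mice cannot go below 0.0286. Without Taz-KO 4685 the difference was 0.00966 percentage points (exact permutation test, p = 1).

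Core members alone made up 1.34, 0.724, 0.901 and 0.680% of the barcodes in the WT mice and 0.230, 0.694, 0.587 and 0.667% in the Taz-KO mice. The Taz-KO values overlapped the WT values only through Taz-KO 4910, which lay between WT 5356 and WT 4909. The mean was 0.910% ± 0.300 (SD, n = 4) for WT mice and 0.544% ± 0.214 (SD, n = 4) for Taz-KO mice, a difference of -0.366 percentage points. Without Taz-KO 4685 the difference was -0.261 percentage points. Since this set was chosen after seeing the data, it carries no test here. The Pkhd1l1-dependent members made up 0.204, 0.214, 0.274 and 0.217% of the barcodes in the WT mice and 0, 0.353, 0.217 and 0.923% in the Taz-KO mice. Taz-KO 5301 lay above all other mice here, whereas its core members lay inside the range of the other mice.

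The targeted gene was then examined. Taz (chrX:74281912-74290151, overlapping Dnase1l1 on the other strand) was at 26.4, 39.02, 42.1 and 29.3 CPM in members of WT mice and 26.2, 26.6 and 44.7 CPM in those of Taz-KO mice, and no UMI of it was found in the 8 members of Taz-KO 4685. The groups overlapped, and the log2 fold change of Taz-KO over WT was -0.25 ± 0.29 (SE) with an adjusted p of 0.989 in the quasi-likelihood test of edgeR (Benjamini-Hochberg). Over all barcodes, Taz was at 40.8 to 41.95 CPM in WT and 22.7 to 31.5 CPM in Taz-KO, and in blood endothelial nuclei at 29.8 to 40.1 CPM in WT and 10.9 to 21.4 CPM in Taz-KO, without overlap in either. In core members it was at 27.7 to 42.8 CPM in WT and 24.2 to 75.03 CPM in Taz-KO, with overlap, and the mean level was 35.3 CPM in WT and 44.1 CPM in Taz-KO, while the fitted log2 fold change was -0.17. The highest Taz-KO values, 44.7 CPM in members and 75.03 CPM in core members, came from Taz-KO 5301. There a single UMI in core members corresponded to 12.5 CPM, so that these levels rest on few counts. In members of Taz-KO 4910 and 5300 Taz was at 26.2 and 26.6 CPM, near the lowest WT value of 26.4 CPM. Which part of the gene the knockout removes is not given in the sources used here.

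UMIs were summed over the members of each mouse, and 11717 genes were tested between 4 WT and 3 Taz-KO mice. No gene passed an adjusted p of 0.05 in the quasi-likelihood test of edgeR (Benjamini-Hochberg), a percent called of 0, and none passed an adjusted p of 0.001 with an absolute log2 fold change above 0.58. At an unadjusted p under 0.05 there were 714 genes (6.09%), of which 409 (3.49%) were higher and 305 (2.6%) lower in Taz-KO. All 3 tested Taz-KO mice lay above all WT mice in 563 genes (4.8%) and below them in 436 (3.72%). DESeq2 called 29 genes at an adjusted p of 0.05, and edgeR called 8 without Taz-KO 5301. In simulated data of this size, edgeR recovered 0% of 2-fold and 80% of 4-fold changes, and DESeq2 9% and 83%. Among 200 changed of 11717 genes, edgeR called 0 and 14 unchanged genes at these folds and DESeq2 6 and 28.

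The same fit over core members alone, an alternative added after seeing the data, gave 5 of 10454 genes at an adjusted p of 0.05 (0.0478%), and 1 at an adjusted p of 0.001 with an absolute log2 fold change above 0.58 (0.00957%). All 5 had higher values in Taz-KO. They were Tenm4, Mthfd2, Cyb5r1, Asns, which encodes asparagine synthetase, and Vmn2r3, a gene of a vomeronasal receptor. The filter on low counts asked for 10.6 CPM in 3 mice, and in core members all of these but Cyb5r1 reached it only with the Taz-KO mice, as did 907 of the 10454 genes. Asns and Vmn2r3 did not pass the filter over all members, and their level in core members of Taz-KO 5301 was a single UMI. In the same nuclei Mthfd2 was at 25.01 CPM, where a single UMI corresponded to 12.5 CPM. Asns was at 0 to 5.31 CPM in WT and 12.5 to 41.7 CPM in Taz-KO in core members, with 5.01 to 5.999 CPM in WT and 12.5 to 54.01 CPM in Taz-KO in blood endothelial nuclei. Vmn2r3 was at 0 to 1.36 CPM in WT and 12.5 to 51.6 CPM in Taz-KO in core members, with 0.141 to 0.329 CPM in WT and 113 to 158 CPM in Taz-KO over all barcodes. At an unadjusted p under 0.05 there were 464 genes (4.44%), 296 of them higher (2.83%) and 168 lower (1.61%), and the Taz-KO mice lay above all WT mice in 413 genes (3.95%) and below them in 315 (3.01%).

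The 10 genes with the lowest p over all members did not pass, with adjusted p of 0.136 to 0.302 in the quasi-likelihood test of edgeR (Benjamini-Hochberg). All 10 were among the genes that DESeq2 called on the same members, with adjusted p of 8.48e-07 to 0.0322. Of these, 7 had higher and 3 lower values in Taz-KO members. The filter favored the direction of 5 of them, since Mthfd2 and Gm35438 reached it only with the Taz-KO mice and the 3 lower genes only with the WT mice. Tenm4 (chr7:96171246-96911093), a teneurin gene of cell adhesion, was at 11.4, 24.01, 14.3 and 3.03 CPM in WT mice and 151, 155 and 89.4 CPM in Taz-KO mice. The groups did not overlap, and the log2 fold change was 3.26 ± 0.43. Mthfd2 (chr6:83305691-83325908), a mitochondrial enzyme of one-carbon metabolism, was at 4.54, 5.50, 11.4 and 8.09 CPM in WT mice and 67.4, 73.9 and 13.4 CPM in Taz-KO mice. Its lowest Taz-KO value, from Taz-KO 5301, lay just above the highest WT value, and the log2 fold change was 3.001 ± 0.43. Ptprt (chr2:161521990-162661147), a receptor tyrosine phosphatase gene, was at 11.8, 5.002, 13.6 and 9.10 CPM in WT mice and 42.6, 46.02 and 49.2 CPM in Taz-KO mice, with a log2 fold change of 2.16 ± 0.32. Eprs (chr1:185363044-185428360), the glutamyl-prolyl-tRNA synthetase gene, was at 90.4, 85.5, 87.8 and 81.9 CPM in WT mice and 189, 194 and 139 CPM in Taz-KO mice, with a log2 fold change of 0.997 ± 0.17. Cyb5r1, a cytochrome b5 reductase gene, had a log2 fold change of 1.99 ± 0.31, and the noncoding Gm35438 and Gm46367 had 1.90 ± 0.30 and 1.21 ± 0.22. Gm46367 overlaps Numb on the other strand.

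The 3 genes with lower values were noncoding. Gm26862 (chr7:93006982-93104789, overlapping Fam181b on the same strand) was at 18.2, 20.01, 17.1 and 29.3 CPM in WT mice and 1.94, 1.21 and 4.47 CPM in Taz-KO mice, with a log2 fold change of -3.40 ± 0.48. Gm24474 (chr12:70650182-70693780) was at 30.4, 35.01, 27.1 and 55.6 CPM in WT mice and 2.91, 1.21 and 8.94 CPM in Taz-KO mice, with a log2 fold change of -3.63 ± 0.52. For Gm20757 (chr10:92171301-92375373) the Taz-KO values were 0.969, 0 and 0 CPM, and the fitted log2 fold change of -4.13 ± 0.73 rests on almost no counts in these mice. The fitted changes of Gm26862 and Gm24474 also rest on few counts there. All members of Taz-KO 4910, 5300 and 5301 together held 2063622, 825731 and 223679 UMIs, respectively.

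The ratio of the mean levels of Taz-KO and WT mice had the same direction for all 10 genes in blood endothelial nuclei and over all barcodes. Tenm4 was at 4.85 to 11.1 CPM in WT and 175 to 196 CPM in Taz-KO in blood endothelial nuclei, at 9.49 to 12.2 CPM in WT and 565 to 977 CPM in Taz-KO over all barcodes, and at 8.16 to 11.1 CPM in WT and 214 to 599.9 CPM in Taz-KO over the barcodes with the fewest UMIs. Mthfd2 was at 6.16 to 11.3 CPM in WT and 20.3 to 82.6 CPM in Taz-KO in blood endothelial nuclei and at 7.43 to 10.5 CPM in WT and 32.6 to 75.6 CPM in Taz-KO over all barcodes. Gm24474 was at 27.00 to 54.2 CPM in WT and 3.39 to 5.96 CPM in Taz-KO in blood endothelial nuclei and at 122 to 181 CPM in WT and 12.2 to 16.3 CPM in Taz-KO over all barcodes. Ptprt was at 0.963 to 3.77 CPM in WT and 10.9 to 34.2 CPM in Taz-KO in blood endothelial nuclei and at 3.28 to 5.47 CPM in WT and 89.6 to 167 CPM in Taz-KO over all barcodes, whereas in Pkhd1l1-dependent members it was at 17.1 to 55.2 CPM in WT and 69.6 to 91.9 CPM in Taz-KO and in core members at 0 to 9.56 CPM in WT and 12.5 to 26.1 CPM in Taz-KO. The part of RNA from other nuclei in the values of the members was not tested. Sod1, the superoxide dismutase gene, was at 135, 151, 167 and 33.4 CPM in members of WT mice and 148, 185 and 22.4 CPM in those of Taz-KO mice, with the lowest value of each group in WT 5356 and Taz-KO 5301. Its log2 fold change was 0.01 ± 0.60. The study names Sod1 for this cell type and counts the gene there as higher in Taz-KO. It tested nuclei with MAST after correction for ambient RNA, so that both the nuclei and the test differ from those used here.

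**Figure D4:**
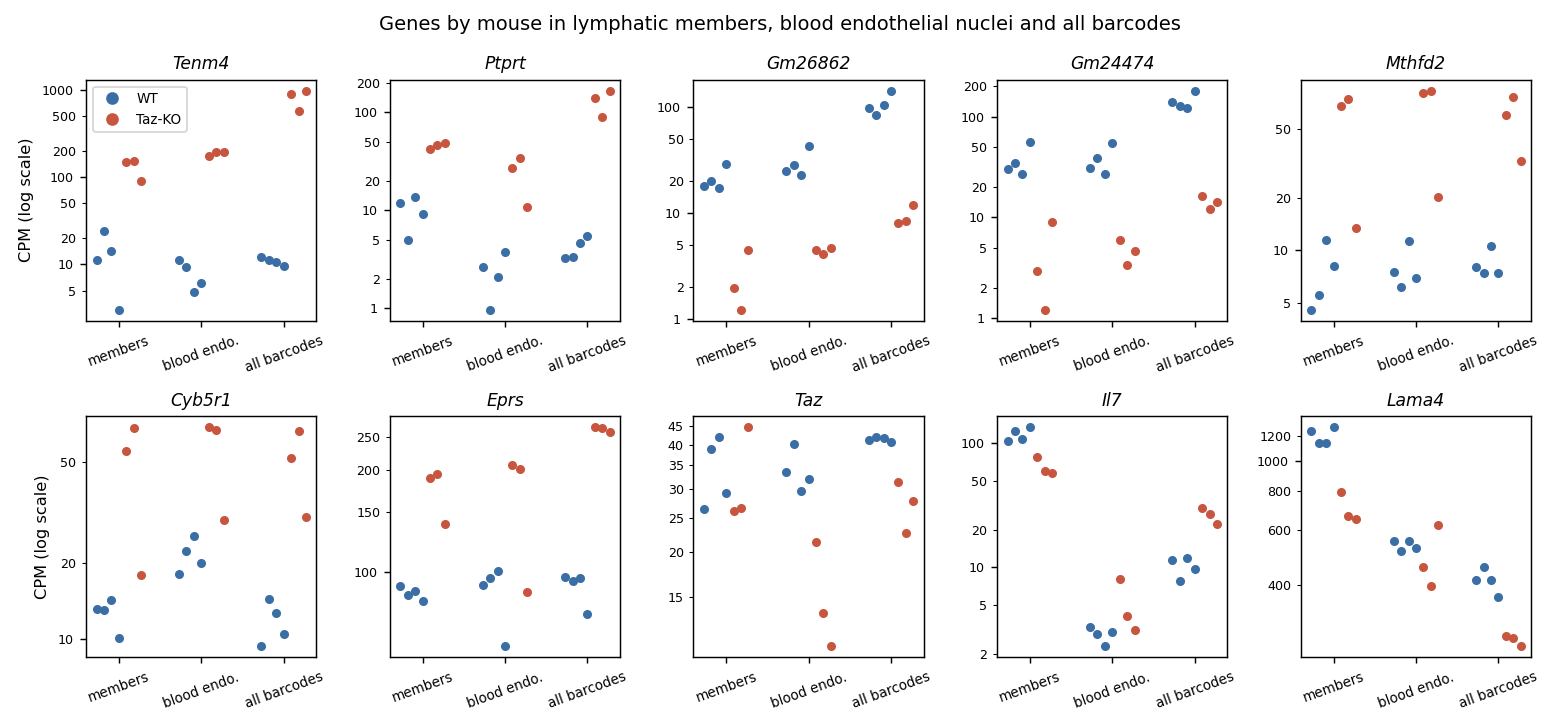
CPM (log axis) of 10 genes in all members, blood endothelial nuclei and all barcodes, with 1 point per mouse, WT blue and Taz-KO red. Tenm4 and Eprs lie higher in Taz-KO in members and over all barcodes, and Il7 lies lower in Taz-KO members (58.1 to 77.0 CPM against 105 to 134 CPM) but higher in Taz-KO over all barcodes.

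The summed level of the genes of the integrated stress response and of tRNA charging was higher in 2 of the 3 tested Taz-KO mice than in any WT mouse. This response, driven by the transcription factor ATF4, raises enzymes of serine and one-carbon metabolism, amino acid transporters and aminoacyl-tRNA synthetases. Of 27 listed genes 18 passed the filter on low counts and were tested, 17 had a log2 fold change above 0, and the median was 1.13, against 0.01 over all genes tested. The filter asked for 7.14 CPM in 3 mice, and 7 of the 18 reached it only with the Taz-KO mice (966 of 11717 over all genes). This favors genes that are higher in Taz-KO, so that the median over the tested genes is not support. With no filter all 27 genes were fitted, and 26 had a log2 fold change above 0, against 11009 of 22789 over all genes. None of the 18 passed an adjusted p of 0.05 in edgeR, and DESeq2 called Mthfd2 with an adjusted p of 0.000206. Without Taz-KO 5301 edgeR called Mthfd2, Asns and Gdf15 of the list, with adjusted p of 0.0027, 0.00709 and 0.000195. It called Mthfd2 with all 8 mice, at an adjusted p of 0.0319. With no filter on low counts edgeR called Mthfd2, Asns, Ddit3, Fgf21 and Gdf15, with adjusted p of 0.00261, 0.00204, 0.0354, 0.0238 and 0.0365. At an unadjusted p under 0.05 in edgeR, 14 had higher values (3.49% of all genes did), 6 of which reached the filter only with the Taz-KO mice and carry no weight in this count, while 8 reached it in the WT mice as well. For 8 genes (4.8% of all genes) all Taz-KO mice lay above all WT mice. These were Mthfd2, Ddit3, Psph, Iars, Shmt2, Sesn2, Slc7a11 and Psat1, of which only Ddit3 and Iars reached the filter in the WT mice alone. Ddit3, the stress transcription factor CHOP, was at 8.63, 20.01, 16.4 and 8.09 CPM in WT mice and 51.4, 47.2 and 26.8 CPM in Taz-KO mice, with a log2 fold change of 1.70 ± 0.35. Wars, the tryptophanyl-tRNA synthetase gene, was the exception, with -0.34 ± 0.26.

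The sum of the 27 genes was 463, 419, 459.6 and 274 CPM in members of WT mice and 999, 1227 and 353 CPM in those of Taz-KO mice. Taz-KO 5301 lay inside the WT range, while the other 2 tested Taz-KO mice lay above it, as did Taz-KO 4685 with 1097 CPM in its 8 members. Gdf15, which encodes a stress hormone, was at 0.909, 1.000, 1.43 and 0 CPM in WT mice and 52.8, 59.3 and 0 CPM in Taz-KO mice, so that it too was high in only 2 of the 3 tested Taz-KO mice. In core members the sum was 467, 410.2, 466 and 297 CPM in WT mice and 1065, 1249 and 450.2 CPM in Taz-KO mice, and 6 of the 17 genes tested passed the filter only with the Taz-KO mice. Over all barcodes it was 421, 447, 437 and 324 CPM in WT mice and 1108, 1471 and 927 CPM in Taz-KO mice, without overlap. In blood endothelial nuclei it was 455, 524, 534 and 382 CPM in WT mice and 1247, 1473 and 522 CPM in Taz-KO mice, with Taz-KO 5301 inside the WT range there as well.

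The genes of lymphatic identity did not pass an adjusted p of 0.05 in edgeR. The genes of the rule, Prox1, Flt4, Ccl21a, Reln and Mmrn1, were left out of the lists described here. Of 15 lymphatic transcription factors the 14 other than Prox1 were tested, with a median log2 fold change of -0.22. Of these, 4 were lower at an unadjusted p under 0.05 (against 2.6% of all genes). These were Tbx1 with -0.60 ± 0.22, Nfatc1 with -0.58 ± 0.22, Tshz2 with -0.57 ± 0.23 and Nr2f2 with -0.48 ± 0.20. Tbx1 was at 69.1, 54.5, 57.8 and 47.5 CPM in members of WT mice and 34.4, 43.6 and 40.2 CPM in those of Taz-KO mice, without overlap. In core members, where none of the 14 tested had an unadjusted p under 0.05, it was at 80.6, 69.96, 81.8 and 65.9 CPM in WT mice and 53.9, 59.1 and 113 CPM in Taz-KO mice, and the groups overlapped. Nr2f2 was at 291 to 416 CPM in WT and 215 to 273 CPM in Taz-KO in members and at 394 to 458 CPM in WT and 346 to 513 CPM in Taz-KO in core members, so that its separation was also lost, and at an enrichment of at least 20 its log2 fold change turned to 0.31. Pkhd1l1-dependent members, in which both genes were low, made up 13.2 to 24.2% of members in WT and 27.0 to 58.1% in the 3 tested Taz-KO mice, and their part in these differences was not tested.

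Of the 12 genes of the VEGF-C axis 10 were tested (median -0.12), and Adamts3, the protease that activates VEGF-C, was the only one at an unadjusted p under 0.05 (3.49% of all genes were higher). It was at 19.1, 16.01, 19.98 and 20.2 CPM in WT mice and 27.1, 31.5 and 26.8 CPM in Taz-KO mice, with a log2 fold change of 0.58 ± 0.23, and its groups did not overlap in core members either (14.9 to 21.02 CPM in WT and 25.01 to 28.9 CPM in Taz-KO). Over all barcodes its mean was lower in Taz-KO, with 43.4 to 53.6 CPM in WT and 31.6 to 48.7 CPM in Taz-KO, and without the members that had blood endothelial genes above their share in the library its log2 fold change turned to -0.41. In core members Nrp1 also had an unadjusted p under 0.05, with a log2 fold change of -0.67 ± 0.28 and no overlap (1.61% of all genes were lower). Of the 6 TIE and angiopoietin genes (median -0.38), Tek was at 229, 246, 243 and 339.6 CPM in WT mice and 198, 193 and 121 CPM in Taz-KO mice, with a log2 fold change of -0.64 ± 0.23. Over all barcodes Tek was at 144 to 228 CPM in WT and 115 to 138 CPM in Taz-KO, without overlap, whereas the groups overlapped in core members. They also overlapped in blood endothelial nuclei, with Tek at 334 to 568 CPM in WT and 293 to 578 CPM in Taz-KO. No gene of the adrenomedullin receptor list (6 of 7 tested, median -0.08) or of junctions and valves (18 of 20 tested, median -0.15) had an unadjusted p under 0.05. In core members the medians of both lists were above 0, at 0.22 with 4 of 5 genes tested higher and at 0.05 with 14 of 19 higher, whereas 13 of 18 junction and valve genes were lower over all members. The medians of the immune and the matrix genes described next also turned, from -0.10 in each to 0.00016 and 0.04 in core members.

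Among the genes of immune traffic and scavenging (21 of 23 tested, median -0.10), 1 was higher and 2 lower at an unadjusted p under 0.05, against 3.49% and 2.6% of all genes. Il7 was at 105, 126, 109 and 134 CPM in members of WT mice and 77.05, 59.3 and 58.1 CPM in those of Taz-KO mice, without overlap. Its log2 fold change was -0.87 ± 0.20, with an adjusted p of 0.395 in the quasi-likelihood test of edgeR (Benjamini-Hochberg). In core members it was at 116 to 186 CPM in WT and 78.2 to 163 CPM in Taz-KO, with overlap. Over all barcodes the order was the reverse, at 7.77 to 11.9 CPM in WT and 22.4 to 30.2 CPM in Taz-KO. Sema6a was at 1127, 1012, 1081 and 1563 CPM in members of WT mice and 816, 689 and 724 CPM in those of Taz-KO mice, with a log2 fold change of -0.70 ± 0.22, and in core members at 1197 to 2031 CPM in WT and 905 to 1438 CPM in Taz-KO, with overlap. Ackr4, a scavenging receptor for CCL21, had 1.11 ± 0.45 with overlapping groups and reached the filter only with the Taz-KO mice, which favored this direction.

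Of the secreted and matrix genes (11 of 13 tested, median -0.10), Lama4 was at 1250.2, 1139, 1141 and 1279.5 CPM in WT mice and 794, 666 and 653 CPM in Taz-KO mice. The groups did not overlap, and the log2 fold change was -0.79 ± 0.19, with an adjusted p of 0.400 in the quasi-likelihood test of edgeR (Benjamini-Hochberg). DESeq2 called Lama4 on the same members, with an adjusted p of 0.0118. Core members of Taz-KO 5301 were inside the WT range for it, those of the other 2 Taz-KO mice below it, with 1359.8, 1386, 1482 and 1662 CPM in WT mice and 1088, 855 and 1476 CPM in Taz-KO mice. Over all barcodes Lama4 was at 367 to 458 CPM in WT and 255 to 275 CPM in Taz-KO. In blood endothelial nuclei it was at 515 to 554 CPM in WT and 396 to 623 CPM in Taz-KO, with overlap.

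For the genes of fatty acid uptake and oxidation, 15 of 18 tested had a log2 fold change below 0, against 5701 of 11717 over all genes, with a median of -0.31. Acsl1, the acyl-CoA synthetase gene, was the only one at an unadjusted p under 0.05 (2.6% of all genes were lower), with -0.81 ± 0.31 and overlapping groups. Over all barcodes Acsl1 was at 259 to 379 CPM in WT and 185 to 226 CPM in Taz-KO, without overlap. In blood endothelial nuclei it was at 157 to 276 CPM in WT and 125 to 159 CPM in Taz-KO, with overlap. The list summed to 2600.0, 3611, 3238 and 1732 CPM in members of WT mice and 2996, 2926 and 827 CPM in those of Taz-KO mice, lowest in WT 5356 and Taz-KO 5301, the mice with the lowest cardiomyocyte list. No gene of the cardiolipin list (11 tested, median -0.03), the antioxidant list (15 of 16 tested, median 0.01) or the protein folding list (8 of 11 tested, median 0.39) had an unadjusted p under 0.05. In core members 4 genes of these lists were higher at that threshold, against 2.83% of all genes, and none passed an adjusted p of 0.05 in edgeR. The heat shock genes Dnajb1 and Hspe1 had log2 fold changes of 1.72 ± 0.46 and 1.16 ± 0.34 and did not overlap, Crls1, which encodes cardiolipin synthase, had 0.84 ± 0.38 and did not overlap, and Cat, the catalase gene, had 0.64 ± 0.28 with overlap. Dnajb1 passed the filter only with the Taz-KO mice, and was at 2.80 to 5.43 CPM in WT mice and, in Taz-KO 5301, at a single UMI.

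**Figure D5:**
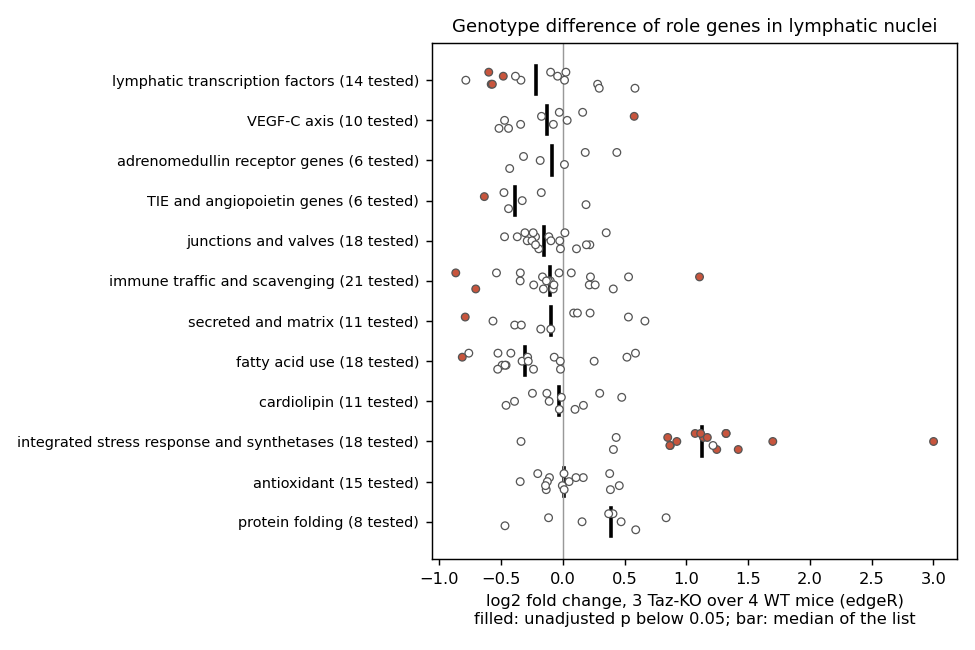
Log2 fold change of Taz-KO over WT in members for each tested gene of 12 lists by role, without the genes of the rule (points, filled at an unadjusted p under 0.05, and bar, median of the points shown). The bar of the integrated stress response and synthetases lies at 1.13, 7 of its 18 points passed the filter only with the Taz-KO mice, and no gene in the plot passed an adjusted p of 0.05 in edgeR, while DESeq2 called Mthfd2 and Lama4.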

How the data were processed

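Nuclei of cryopreserved whole hearts were sequenced with 10x Genomics 3' v3.1 chemistry. The authors ran Cell Ranger 6.0.1 and deposited its raw UMI counts for each barcode, aligned to the mm10-2020-A reference, with intronic reads included. The correction for ambient RNA and the removal of doublets that the study describes came after these counts and were not repeated here. No doublet caller was run. Instead, the share and the genes were recomputed without nuclei of more than 2 times the median UMIs of the members of their library, and without the 1108 members whose blood endothelial genes were above 1 time their share in the library. The 2 gene IDs named Ccl21a were summed, 1 of which had no UMI in members.

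Barcodes were chosen by the enrichment rule in Python 3.11.15 with numpy 2.4.6 and pandas 2.3.3, and groups were taken from the genotype labels. Blood endothelial nuclei had an enrichment of at least 3 with at least 4 UMIs of their 6 genes, a lymphatic enrichment of at most 1, and the same exclusion limits. Sums of counts over the members of a mouse went into edgeR 4.0.16 (R 4.3.3). Genes were filtered with filterByExpr, libraries were scaled by TMM, dispersions were estimated robustly, and p-values of the quasi-likelihood test were adjusted by Benjamini-Hochberg over all genes tested. The study tested nuclei with MAST, and mice were taken as replicates here. The mouse with fewer than 10 members was left out of this fit. Shares were compared with the exact two-sided permutation test of scipy 1.17.1. DESeq2 1.42.0 and the alternatives listed under the processing were also run. The edgeR and DESeq2 fits were tested on simulated data with 200 changed genes among 11717. Log2 ratios between kinds of nuclei used a pseudocount of 1 CPM.

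The members and the gene lists were chosen with earlier results of these data known. Named genes are those of the rule, Taz, Sod1, which the study names for this cell type, up to 10 genes with the lowest p, list members with at least 20 CPM or all where a result turns on the list, and the 15 genes per side with the largest smallest ratio to blood endothelial nuclei. Asns and Vmn2r3 were named after their values were seen. Positions are those of GENCODE vM21 (GRCm38), in which 127 of 32272 gene IDs had no match. Differences in mesothelial, endocardial, blood endothelial, cardiomyocyte and fibroblast transcripts between members of different mice were measured and not corrected.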

Additional observations from a re-analysis of the deposited data

How the results depend on the processing

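No paired analysis was possible because the groups share no replicate numbers. The difference in the share of members kept its direction under 16 alternatives, and it reversed to 0.00966 percentage points without Taz-KO 4685. Leaving out 1 mouse at a time gave -0.444 to 0.00966 percentage points. In core members, the alternative added after seeing the data, it was -0.366 points. The count of genes at an adjusted p of 0.05 was 0 in 11 alternatives of edgeR. It was 1 at an enrichment of at least 20, 3 at one of at least 5 (where all 8 mice had 10 or more members and entered, and also 3 over the same 7 mice, added after seeing the data), 22 with no filter on low counts, 4 with all 8 mice (added after seeing the data), 5 in core members, 29 with DESeq2 and 19 with DESeq2 in core members. Leaving out 1 mouse at a time gave 0 to 8 genes, the 8 without Taz-KO 5301. At an adjusted p of 0.001 with an absolute log2 fold change above 0.58 the count was 0 in 15 alternatives, 1 in core members, 2 with no filter, 4 with DESeq2 and 4 with DESeq2 in core members, and 0 to 2 when 1 mouse was left out, the 2 without Taz-KO 5301. The cause was not tested. The log2 fold change of Sod1, 0.01 over all members, turned to -0.043 at an enrichment of at least 20, -0.011 at one of at least 5 over the same 7 mice, -0.030 with no filter, -0.045 with DESeq2 and -0.034 with DESeq2 in core members, and lay between -0.37 and 0.37 when 1 mouse was left out. Of the list genes at an unadjusted p under 0.05 and Wars, Adamts3 turned to -0.41 without members whose blood endothelial genes were above their share, Nr2f2 to 0.31 at an enrichment of at least 20 and Wars to 0.014 at one of at least 5 over 8 mice. The fitted log2 fold changes of these genes, Taz and the 10 genes with the lowest p otherwise kept their direction, 42 values passed an adjusted p of 0.05, and the ratios of the leading genes to blood endothelial nuclei kept theirs, with 33 of 90 values moved by more than their SD over mice. Depth limits the gene test most in Taz-KO 5301, with 62 members, and p-values measure the spread between mice of 1 experiment.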
